A study of Mus musculus with 9 samples.

Results

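The genes of the proteasome were followed through mouse T cell lymphomas and control T cells. Members were all rows of the deposited table whose symbol starts with Psma to Psmg followed by a digit, leaving out the pseudogene rows marked -ps and the immunoproteasome genes Psmb8 and Psmb9. The rule found 48 of 46078 genes. By known roles, 17 encode the core particle, 17 encode subunits of the regulatory particle, 7 are assembly chaperones and 1 is an inhibitor. Another 5 are grouped as activators, among them Psme2b, a copy of Psme2 that was placed there by its symbol. The remaining 1, Psmc3ip, encodes a recombination factor that shares only the symbol. Psmc3ip is counted in totals over all members but in none of the structural groups.

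RNA 3′ ends were sequenced from 6 MYCN-induced T cell lymphomas taken from the thymus (lymphoma 34, 53, 56, 70, 72 and 86) and from CD4+ T cells of the spleen in 3 control samples (CD4 1, 2 and 3), all of strain C57BL/6J. The labels do not give ages, the promoter that drove MYCN, how the CD4+ cells were purified, or whether the samples of a group came from separate animals, so p-values measure only the spread between these samples. The series asks what aberrant MYCN, a transcription factor of the MYC family, does in peripheral T cell lymphoma, and the comparison that its RNA samples imply is lymphoma against CD4. Tissue and group coincide, so a difference of tissue and a difference of lymphoma cannot be told apart.

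The proteasome degrades proteins that carry ubiquitin chains. Its core particle is a barrel of stacked rings, alpha subunits (Psma) outside and beta subunits (Psmb) inside, and only a few beta subunits cut peptide bonds. The regulatory particle caps the barrel, with a ring of ATPases (Psmc) that unfold the substrate and non-ATPase subunits (Psmd) that bind ubiquitin and remove it. Activators (Psme) open the barrel without needing ubiquitin, and dedicated chaperones (Psmg for the core, a few Psmd genes for the base of the cap) assist assembly. Dividing cells and cells that make much protein depend on this machine, and T cells and antigen presenting cells exchange some subunits for interferon-inducible forms that change which peptides are cut.

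Gene counts ran from 11170704 to 15769679 per lymphoma library and from 8099960 to 10808828 per CD4 library. Levels are given as CPM, meaning counts per 1000000 after the library size was scaled by the TMM method. A count of 0 allowed up to 3 counts, which was at most 0.274 CPM in any lymphoma library and 0.360 CPM in any CD4 library, counting error only. Lymphoma 53 stood apart, with a Pearson correlation of log2 CPM across genes of 0.884 to 0.900 with the other lymphomas, which correlated at 0.939 to 0.980 among themselves. The mouse gene Mycn had 0 to 3 counts per lymphoma and 0, 0 and 6 counts in CD4 1, 2 and 3, so it does not check the labels. T cell markers summed to 1389 to 2632 CPM in lymphoma and 2399 to 2501 CPM in CD4; of the 7 only Cd4 passed the test, at 6.04 to 71.9 CPM in lymphoma and 199 to 263 CPM in CD4, and Cd3d was present at 386 to 512 CPM in every lymphoma. B cell markers summed to 661 to 774 CPM in CD4 libraries and 2.55 to 7.87 CPM in lymphomas, with 6 of 6 lower in lymphoma. Myeloid markers (4 of 6 lower) summed to 444 to 725 CPM in CD4 and 44.1 to 147 CPM in lymphoma, and plasmacytoid dendritic cell markers (4 of 4 lower) to 402 to 463 CPM and 47.1 to 99.0 CPM. Markers of cycling cells were higher in lymphoma for 7 of 7 genes, at a sum of 1791 to 2951 CPM against 225 to 253 CPM. Thymic epithelial markers summed to 20.6 to 63.0 CPM in lymphoma and 4.92 to 13.03 CPM in CD4. Of the 8, 3 were tested and 2 were higher. Foxn1, Krt5 and Krt8 were at 0 in all CD4 libraries and reached only 0.258, 0.722 and 0.612 CPM in lymphoma. Krt14 and Aire reached 0.322 and 0.851 CPM in lymphoma and more in CD4, at 1.08 and 1.72 CPM. Epcam reached 50.7 CPM in lymphoma and 1.93 CPM in CD4. Prss16 ran from 1.37 to 11.1 CPM in lymphoma and from 0 to 0.917 CPM in CD4. Ccl25 ran from 5.54 to 13.8 CPM in lymphoma and from 1.68 to 9.91 CPM in CD4. Erythroid markers (0 of 4 higher, 0 lower) summed to 8.15 to 632 CPM in lymphoma and 69.1 to 241 CPM in CD4. Stroma markers (1 of 5 higher, 1 lower) summed to 79.0 to 151 CPM in lymphoma and 210 to 232 CPM in CD4. The part these cells have in the results that follow was not tested, and in bulk RNA fewer cells of a type and less RNA per cell cannot be told apart.

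To show what lies upstream of some activator and catalytic subunit genes whose changes differed, promoter sequences were taken from RefSeq (GRCm38.p6). Each ran from 250 bases before to 50 bases after a start site. For 40 of the 48 members at least 1 was found, 43 in all. Members without one included Psmd3 and Psmg2, whose rises were among the largest. The members were searched on both strands for CACGTG (the E-box bound by MYC family proteins), TGACNNNGC (the antioxidant response element through which NFE2L1 acts on proteasome genes), CCGGAAG (bound by ETS factors) and CCAAT, and matches are in capitals below. The activator genes come first, because Psme3 rose while Psme2 fell. The lines are Psme3 (chr11:101315963-101316262, plus strand), Psme2 (chr14:55591052-55591351, minus strand, the first of its 2 listed starts) and Psme1 (chr14:55578244-55578543, plus strand).
Psme3: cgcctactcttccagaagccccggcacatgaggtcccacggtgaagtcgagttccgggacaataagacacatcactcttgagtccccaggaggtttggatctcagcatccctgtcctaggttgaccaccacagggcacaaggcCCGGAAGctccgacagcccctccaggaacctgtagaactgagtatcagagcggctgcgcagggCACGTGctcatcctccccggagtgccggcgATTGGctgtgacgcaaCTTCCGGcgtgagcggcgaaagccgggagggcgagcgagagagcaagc
Psme2: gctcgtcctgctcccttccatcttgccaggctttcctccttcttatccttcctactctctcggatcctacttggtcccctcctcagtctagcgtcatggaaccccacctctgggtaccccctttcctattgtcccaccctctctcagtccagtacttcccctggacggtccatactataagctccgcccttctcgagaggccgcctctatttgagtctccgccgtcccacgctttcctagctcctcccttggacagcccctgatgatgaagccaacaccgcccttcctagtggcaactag
Psme1: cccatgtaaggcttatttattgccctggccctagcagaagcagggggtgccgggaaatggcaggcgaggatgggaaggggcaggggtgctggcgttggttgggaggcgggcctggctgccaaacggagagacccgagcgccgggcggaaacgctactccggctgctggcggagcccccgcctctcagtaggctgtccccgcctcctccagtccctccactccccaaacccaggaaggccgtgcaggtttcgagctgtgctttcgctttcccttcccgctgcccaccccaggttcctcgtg
The Psme3 window held CACGTG once, CCGGAAG at 2 places and CCAAT once. No searched motif was found in the Psme1 window or in either Psme2 window.

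Catalytic subunit genes are shown next, because Psmb5 and Psmb6 rose in every lymphoma while Psmb10 did not. The windows are Psmb5 (chr14:54617946-54618245, minus strand), Psmb6 (chr11:70525107-70525406, plus strand) and Psmb10 (chr8:105938343-105938642, minus strand).
Psmb5: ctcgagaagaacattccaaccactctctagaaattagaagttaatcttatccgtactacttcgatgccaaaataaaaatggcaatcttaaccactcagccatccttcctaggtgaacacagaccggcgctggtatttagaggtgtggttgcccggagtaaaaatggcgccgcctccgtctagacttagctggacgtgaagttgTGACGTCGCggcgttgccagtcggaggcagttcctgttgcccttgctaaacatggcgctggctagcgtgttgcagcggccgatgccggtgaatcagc
Psmb6: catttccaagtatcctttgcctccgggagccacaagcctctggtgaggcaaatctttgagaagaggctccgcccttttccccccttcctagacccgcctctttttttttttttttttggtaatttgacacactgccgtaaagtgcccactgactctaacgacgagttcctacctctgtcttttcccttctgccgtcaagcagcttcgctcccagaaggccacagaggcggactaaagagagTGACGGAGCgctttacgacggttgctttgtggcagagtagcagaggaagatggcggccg
Psmb10: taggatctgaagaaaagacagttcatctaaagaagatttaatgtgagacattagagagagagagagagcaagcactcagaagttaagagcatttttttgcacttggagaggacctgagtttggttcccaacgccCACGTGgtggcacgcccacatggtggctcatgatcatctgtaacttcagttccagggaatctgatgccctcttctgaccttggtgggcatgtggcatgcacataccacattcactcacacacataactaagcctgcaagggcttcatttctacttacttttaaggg
Psmb5 and Psmb6 each held TGACNNNGC once and Psmb10 held CACGTG once. Over the 43 member promoters, CACGTG was found in 9.30%, TGACNNNGC in 13.95%, CCGGAAG in 37.2% and CCAAT in 32.6%. Among all 32851 promoters of the same length the shares were 7.15%, 12.4%, 8.86% and 37.4%, and among the 12554 promoters of genes tested here 9.64%, 14.4%, 17.0% and 37.3%. The 4 members with CACGTG were Psma4, Psmb10, Psmd9 and Psme3. A match describes letters in a window and not a bound site.

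Most proteasome genes were higher in lymphoma. Of the 48 members, 46 passed the filter on low counts, and 38 of these were higher and 2 lower by edgeR's quasi-likelihood test at a Benjamini-Hochberg adjusted p under 0.05. Over all 15401 tested genes 24.7% were higher and 21.9% lower. A rise of at least 2-fold was met by 32 members, against 17.9% of tested genes. In the same 38 members every lymphoma library lay above every CD4 library in CPM, an arrangement found in 22.6% of tested genes, and 2 members lay wholly below, against 22.3%. The median log2 fold change (lymphoma over CD4) was 1.19 over the 46 members and 0.04 over all tested genes. Without lymphoma 53 the counts were again 38 and 2 and the member median was 1.07. Leaving out Psmc3ip, a choice made after seeing the data, 37 of 45 tested members were higher and 2 lower, 31 rose at least 2-fold, and the median was 1.18. The parts of the machine are described in turn.

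**Figure D1:**
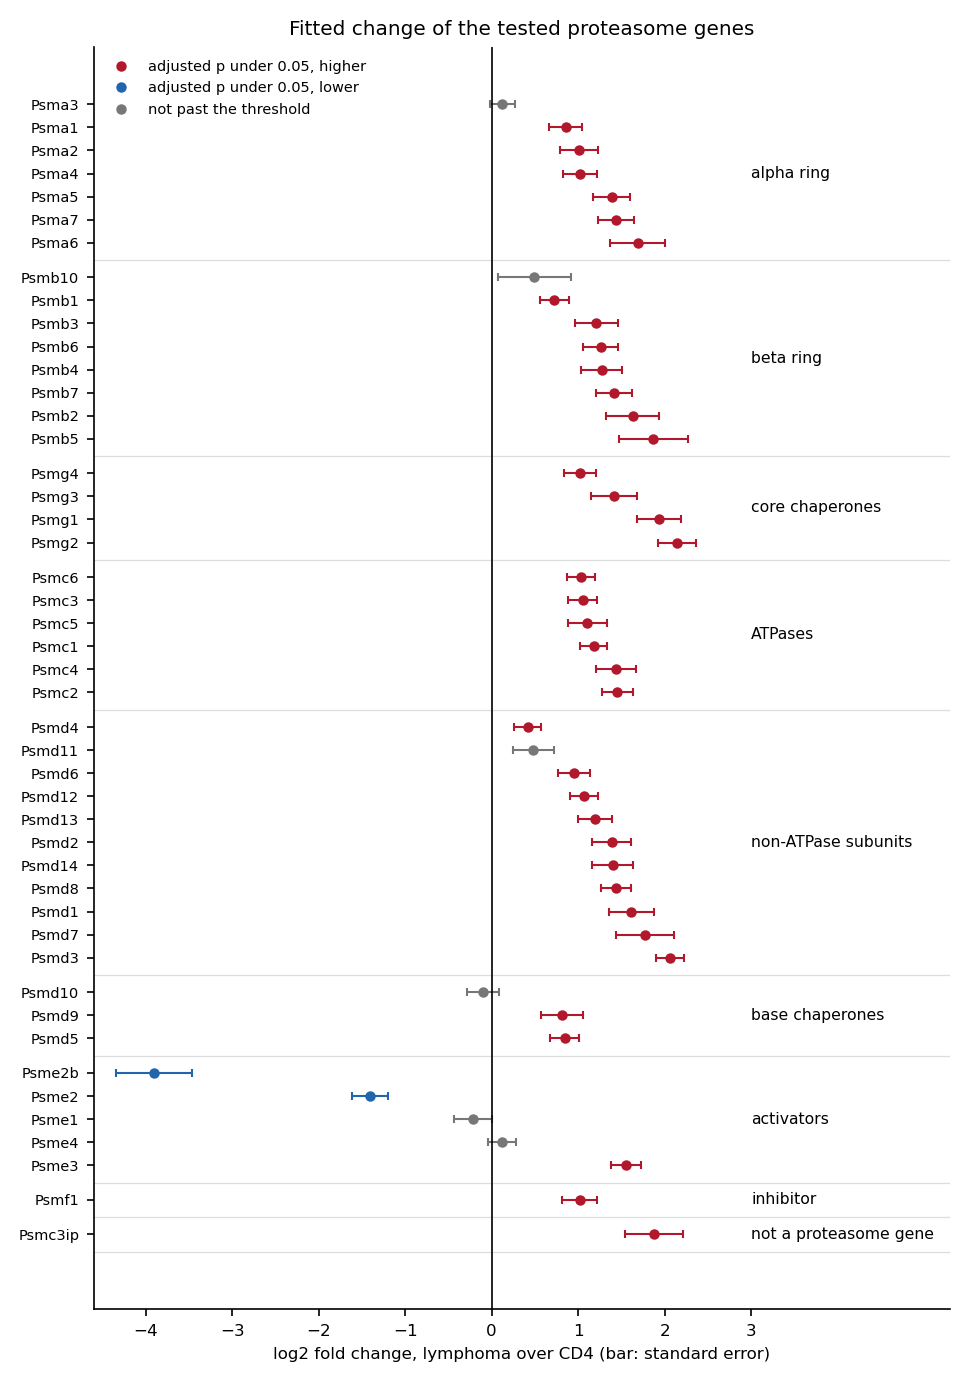
Log2 fold change of the 46 tested members, lymphoma over CD4, with standard errors as bars, ordered by structural group. Points lie to the right of 0 in nearly all groups, while the activators spread from -3.90 for Psme2b to 1.55 for Psme3.

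Most core genes rose. Of 15 tested core genes 13 were higher and 0 lower, with a median log2 fold change of 1.26 and a range of 0.12 to 1.87. In the alpha ring, which forms the gate of the barrel, 6 of 7 tested genes were higher (median 1.02), and in the beta ring 7 of 8 were higher (median 1.27). Without lymphoma 53 the core median was 1.13.

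Psmb5 encodes the chymotrypsin-like catalytic subunit, the main target of proteasome inhibitor drugs. It stood at 26.6, 48.8 and 60.2 CPM (lowest, median and highest lymphoma) and at 23.0, 9.72 and 6.51 CPM in CD4 1, 2 and 3. All lymphomas exceeded all CD4 libraries, but lymphoma 53, the lowest, came close to CD4 1. The log2 fold change was 1.87 (SE 0.399, edgeR adjusted p 0.00250), the largest rise in the core, and it was 2.58 without CD4 1. Psmb5 has a processed pseudogene copy, Gm3375, that matches 227 of its last bases at 99.6%, so reads there may have been dropped as not unique and its level is uncertain.

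Psmb6, the caspase-like subunit, reached 156, 188 and 277 CPM in the lowest, median and highest lymphoma, and 87.7, 79.0 and 79.9 CPM in CD4. Lymphoma 53 was highest, and no lymphoma came near the CD4 values. Its log2 fold change was 1.26 (SE 0.200, edgeR adjusted p 0.000333). Psmb7, the trypsin-like subunit, had 67.6, 82.4 and 102 CPM in lymphoma in the same order, and 35.1, 24.0 and 34.9 CPM in CD4. The change of Psmb7 was 1.41 (SE 0.208, edgeR adjusted p 0.000190). All of the last 300 exonic bases of Psmb7 lie opposite exons of Nek6, and without a stated strand setting reads of the pair cannot be told apart.

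Psmb10, the interferon-inducible form that takes the place of Psmb7, varied most among the tumours. Its levels were 73.1, 308, 139, 103, 82.4 and 206 CPM in lymphomas 34, 53, 56, 70, 72 and 86, and 115, 93.0 and 116 CPM in CD4. Lymphomas 53, 56 and 86 lay above all CD4 libraries, 34 and 72 below them, and 70 among them. The fitted log2 fold change of 0.49 (SE 0.424) did not pass (edgeR adjusted p 0.371), and it was 0.16 without lymphoma 53. Its SD within lymphoma was 0.80 log2 units, the widest of any tested member, against a median of 0.29 over members and 0.47 over all tested genes. The log2 ratio of Psmb10 to Psmb7 counts was 0.69 ± 0.701 (SD, n = 6) in lymphoma and 1.80 ± 0.134 (SD, n = 3) in CD4. The difference in the Psmb10/Psmb7 ratio was -1.11, with an exact two-sided permutation p of 0.0595 (also 0.0595 after adjustment over 4 ratios), where 0.0119 is the smallest p that 84 assignments allow. Lymphoma 53 alone, at 1.88, fell within the CD4 range of 1.71 to 1.95. Without it the Psmb10/Psmb7 difference was -1.35, given with no test, because removing the only overlapping library fixes the separation. Leaving out any other single library gave -1.18 to -0.94, with adjusted exact permutation p-values of 0.0893 to 0.143.

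**Figure D2:**
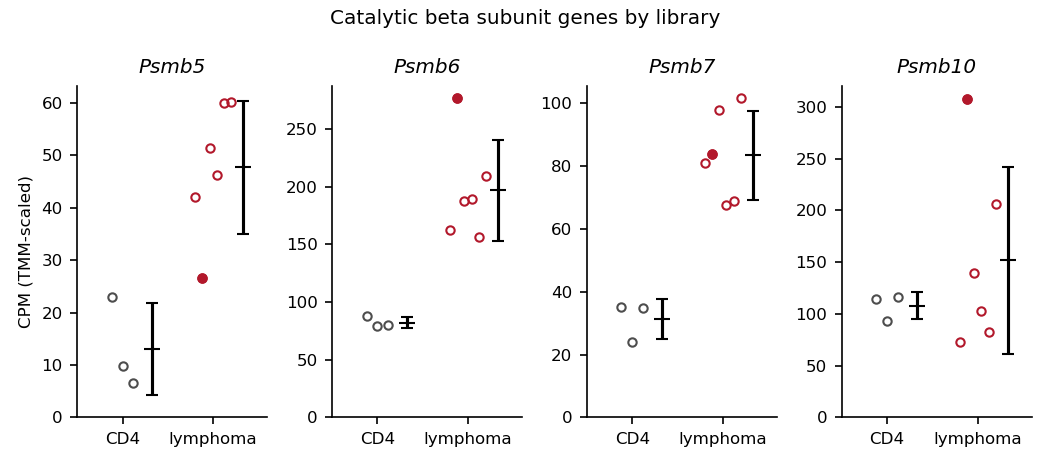
CPM of 4 catalytic beta subunit genes in each library, with group mean and SD at the right of each group and lymphoma 53 filled. Psmb5, Psmb6 and Psmb7 separate the groups, whereas Psmb10 runs from 73.1 to 308 CPM across lymphomas around CD4 values of 93.0 to 116 CPM.

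Psma6, an alpha subunit, had 168, 223 and 457 CPM in the lowest, median and highest lymphoma and 100, 64.9 and 72.8 CPM in CD4, with the highest value in lymphoma 53. The log2 fold change was 1.69 (SE 0.312, edgeR adjusted p 0.000960) and 1.43 without lymphoma 53. Psmb2, a beta subunit without catalytic activity, went from 43.0, 18.7 and 31.6 CPM in CD4 to 64.1, 91.9 and 148 CPM in lymphoma, a change of 1.63 (SE 0.306, edgeR adjusted p 0.00104). Psma7 rose from 242, 206 and 227 CPM to 480, 565 and 868 CPM (log2 fold change 1.44, SE 0.206, edgeR adjusted p 0.000157). The smallest called rise in the core was that of Psmb1 at 0.73 (SE 0.165).

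Psma3 was the exception in the alpha ring. It measured 230, 246 and 309 CPM in the lowest, median and highest lymphoma and 214, 233 and 247 CPM in CD4, so the groups overlapped. Its log2 fold change was 0.12 (SE 0.144, edgeR adjusted p 0.513), and it passed only once the trend of expression with GC content and transcript length was removed (0.49, edgeR adjusted p 0.0274). Of the core genes used by special tissues, Psma8, the testis form of Psma7, had 17 counts (1.10 CPM) in lymphoma 34 and 0 counts in the other 8 libraries. Psmb11, the form found in cortical thymic epithelium, had 0 to 5 counts per lymphoma and 1, 3 and 34 counts in CD4 1, 2 and 3. The last bases of Psmb11 carry a repeat with 1206 near copies among annotated genes, so its few reads are uncertain. The thymic epithelial regulator Foxn1 stood at 0.258 CPM or less in every lymphoma and at 0 in CD4. Neither Psma8 nor Psmb11 passed the filter.

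All but 1 of the regulatory particle genes rose. Of the 17 subunit genes, all tested, 16 were higher and 0 lower, with a median log2 fold change of 1.19, and 1.18 without lymphoma 53. The ATPase ring, Psmc1 to Psmc6, was the most even group: 6 of 6 genes were higher, by 1.03 to 1.45. The smallest was Psmc6, from 86.4, 69.96 and 84.3 CPM in CD4 to 141, 166 and 186 CPM in lymphoma. At the upper end Psmc2 went from 69.5, 70.6 and 83.4 CPM to 170, 199 and 252 CPM (SE 0.178). The last bases of Psmc2 have 29 near copies among annotated genes, the closest at 93.0% over 100 bases, so some of its reads are uncertain. Non-ATPase subunits spread more widely, from 0.42 to 2.06, with 10 of 11 higher and a median of 1.39.

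Psmd3, a scaffold subunit of the lid, showed the largest rise of any subunit. Its levels were 343, 405 and 441 CPM in the lowest, median and highest lymphoma and 97.9, 104 and 83.2 CPM in CD4. Lymphomas differed little from one another (SD 0.15 log2 units). The change was 2.06 (SE 0.162, edgeR adjusted p 1.99e-06), or 4.17-fold. Psmd7, the partner of the deubiquitinase Psmd14, had 224, 278 and 656 CPM in lymphoma against 95.7, 102 and 92.5 CPM in CD4. The top value was that of lymphoma 53, more than any other lymphoma (up to 314 CPM), and Psmd7 changed by 1.78 (SE 0.337, edgeR adjusted p 0.00119), or by 1.46 without that library. Psmd1, a scaffold of the base, rose by 1.62 (SE 0.264, edgeR adjusted p 0.000407), from 116, 93.4 and 115 CPM to 239, 291 and 529 CPM. On 228 of its last 300 bases Psmd1 shares exons with Gm21972, an overlapping annotation. Psmd14 itself, which removes ubiquitin chains from substrates, rose by 1.40 (SE 0.232).

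Psmd4 and Psmd11 were at the low end. Psmd4, a ubiquitin receptor, measured 195, 211 and 270 CPM in the lowest, median and highest lymphoma and 146, 171 and 173 CPM in CD4. No lymphoma fell to the CD4 level, yet the log2 fold change was only 0.42 (SE 0.155, edgeR adjusted p 0.0445), and the call was lost in 12 of 19 alternatives, among them leaving out lymphoma 56 or 72 or any CD4 library. Psmd11, a lid subunit that helps hold cap and core together, had 105, 114 and 202 CPM in lymphoma and 112, 71.8 and 95.4 CPM in CD4. These ranges overlapped through CD4 1, and the change of 0.48 (SE 0.237) did not pass (edgeR adjusted p 0.115). With GC content and length accounted for, Psmd11 passed at 0.93 (edgeR adjusted p 0.0357).

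Core and cap stood side by side at 13 of 15 and 16 of 17 tested genes higher, with medians of 1.26 and 1.19, and the difference between them was not tested. Averaged over members, log2 CPM minus the CD4 mean was 1.15 ± 0.246 (SD, n = 6) for the core and 1.22 ± 0.192 (SD, n = 6) for the regulatory particle. The same lymphomas were high in both, lymphoma 53 (1.45 and 1.52) and lymphoma 86 (1.42 and 1.39), and lymphomas 34, 70 and 72 were low in both, at 0.86 to 1.004 and 1.05 to 1.09. The 3 CD4 libraries ranged from -0.23 to 0.27 for the core and from -0.08 to 0.08 for the cap.

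**Figure D3:**
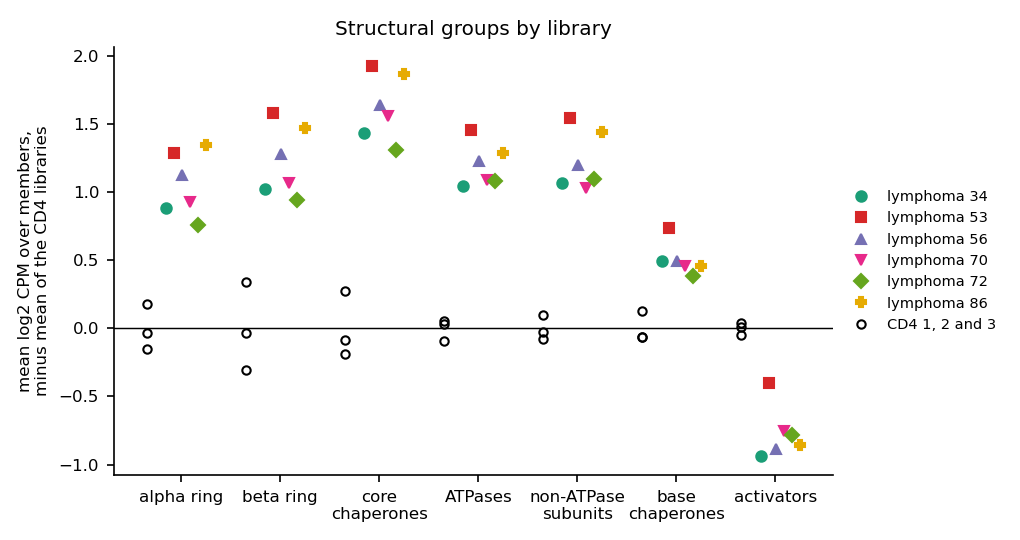
Mean log2 CPM over the tested members of each structural group, minus the mean of the CD4 libraries, with 1 symbol per lymphoma and open circles for CD4. Lymphomas 53 and 86 are highest in core and cap, and the activators are the only group drawn below 0 in all lymphomas. That mean includes Psme2b (log2 fold change -3.90, at 9 to 33 counts per lymphoma). The other activators ran from -1.41 for Psme2 to 1.55 for Psme3, so the mean does not show a fall of the whole group.

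Of the assembly chaperones, all 4 that serve the core rose (median log2 fold change 1.67), whereas the 3 base chaperones had a median of 0.81 with 2 higher. Psmg2, which pairs with Psmg1 to build the alpha ring, showed the largest rise of all members. It reached 132, 147 and 203 CPM in the lowest, median and highest lymphoma from 40.5, 25.0 and 40.2 CPM in CD4, which is 2.14 in log2 (SE 0.220, edgeR adjusted p 1.42e-05). Psmg1 rose alongside it by 1.93 (SE 0.257, edgeR adjusted p 9.17e-05), from 19.7, 12.8 and 11.7 CPM to 40.4, 55.0 and 71.4 CPM. No value of either gene overlapped between the groups. Psmg3, of the other chaperone pair, went from 39.4, 32.5 and 22.7 CPM to 63.9, 74.3 and 129 CPM (1.42, SE 0.269, edgeR adjusted p 0.00112), and its partner Psmg4 rose by 1.02 (SE 0.187). The base chaperone Psmd5 rose by 0.85 (SE 0.168). Psmd9 rose by 0.81 (SE 0.240, edgeR adjusted p 0.0154), from 23.0, 19.0 and 24.0 CPM to 30.9, 34.5 and 60.8 CPM, but its call was lost without CD4 2 (edgeR adjusted p 0.0672). Psmd10, also known as gankyrin, had 27.3, 31.2 and 38.5 CPM in lymphoma and 40.2, 31.8 and 29.4 CPM in CD4. The groups overlapped (log2 fold change -0.10, SE 0.182, edgeR adjusted p 0.689), and the sign turned in 2 alternatives.

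The activators did not move together. Psme1 and Psme2 are interferon-inducible genes whose products form a mixed ring used in antigen processing. Both lie on chromosome 14 in GRCm38, Psme1 at 55578123 to 55581529 and Psme2 at 55587441 to 55591113 on the other strand. Psme2 fell from 213, 139 and 128 CPM in CD4 to 45.2, 61.3 and 73.8 CPM in the lowest, median and highest lymphoma. Every lymphoma lay below every CD4 library. Its log2 fold change was -1.41 (SE 0.207, edgeR adjusted p 0.000191), or 2.65-fold lower. Psme1 had 183, 234 and 359 CPM in lymphoma and 356, 250 and 238 CPM in CD4, and lymphomas 53, 72 and 86 exceeded the lowest CD4 library. The change of Psme1 was -0.22 (SE 0.220, edgeR adjusted p 0.451).

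Psme2b, a copy of Psme2 on chromosome 11 (48945354 to 48946190), had the largest fall of any member. It went from 15.2, 23.0 and 22.9 CPM in CD4 to 0.650, 1.2003 and 3.01 CPM in lymphoma, where libraries held 9 to 33 counts. The log2 fold change was -3.90 (SE 0.437, edgeR adjusted p 2.62e-05). The last 300 bases of Psme2 match Psme2b at 99.0%, so reads common to both are not in either count, and the split of reads between them is uncertain.

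Psme3, whose product forms a ring of a single subunit in the nucleus, rose instead. It stood at 109, 136 and 158 CPM in the lowest, median and highest lymphoma and at 40.4, 51.1 and 46.6 CPM in CD4. The log2 fold change was 1.55 (SE 0.177, edgeR adjusted p 2.95e-05) with no overlap. Psme4, which encodes a large nuclear activator of another kind, had 73.1, 100 and 113 CPM in lymphoma and 88.2, 90.5 and 93.2 CPM in CD4, with lymphoma 53 lowest. Its change of 0.12 (SE 0.167, edgeR adjusted p 0.592) passed only after removal of that trend (0.55, edgeR adjusted p 0.00809). Psmf1, known as an inhibitor of the core in the test tube, rose by 1.02 (SE 0.201, edgeR adjusted p 0.00147), from 22.9, 19.0 and 22.4 CPM to 33.9, 41.5 and 58.4 CPM.

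**Figure D4:**
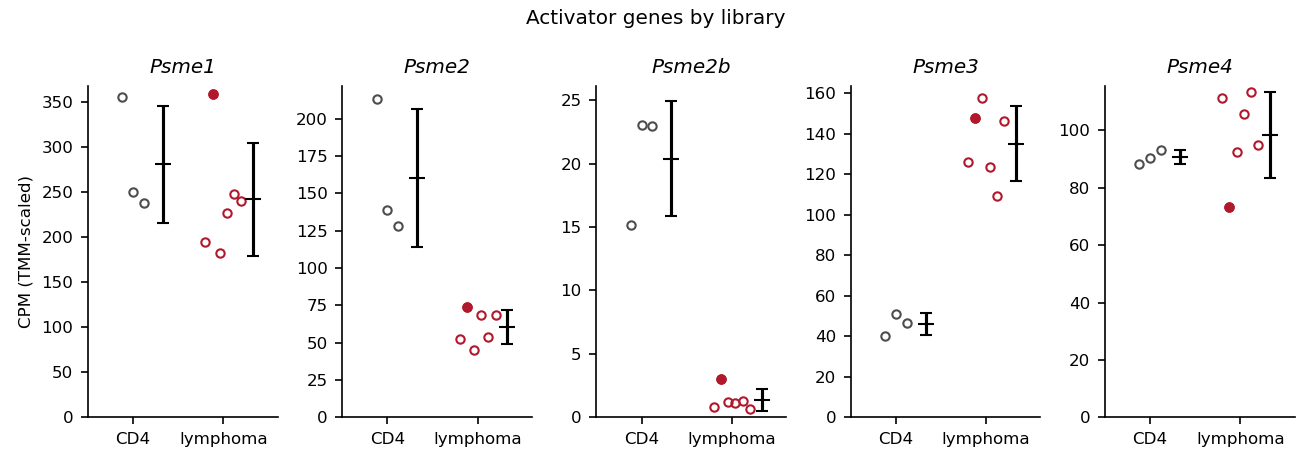
CPM of the 5 activator genes in each library, with group mean and SD at the right of each group and lymphoma 53 filled. Psme2 and Psme2b are lower and Psme3 is higher in all 6 lymphomas than in all 3 CD4 libraries, while Psme1 and Psme4 overlap.

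Ratios within a library do not depend on scaling between libraries. The log2 ratio of Psme2 to Psme3 counts was -1.17 ± 0.337 (SD, n = 6) in lymphoma and 1.77 ± 0.549 (SD, n = 3) in CD4. That is a difference of -2.94, or a 7.66-fold lower ratio. It is given with no test, because Psme2 and Psme3 each separate the groups in opposite directions, which fixes the separation of their ratio. For Psme1 to Psme3 the ratio was 0.82 ± 0.389 (SD, n = 6) in lymphoma and 2.59 ± 0.474 (SD, n = 3) in CD4. The difference was -1.78, also given with no test. On a ratio scale the gap between the groups in Psme3 was wider than their overlap in Psme1, which again fixes the separation. Psme1 to Psme2, the partners of the mixed ring, stood at 1.99 ± 0.220 (SD, n = 6) in lymphoma and 0.82 ± 0.0790 (SD, n = 3) in CD4. The difference in the Psme1/Psme2 ratio was 1.16 (exact two-sided permutation p = 0.0119, adjusted 0.0159 over all 4 ratios). In each of these 3 ratios no lymphoma overlapped with CD4. Those with Psme2 carry the uncertainty of its copy. B cell, myeloid and plasmacytoid dendritic cell markers, given above, move in the same direction as Psme2 and Psme2b, and their part in these falls was not tested.

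**Figure D5:**
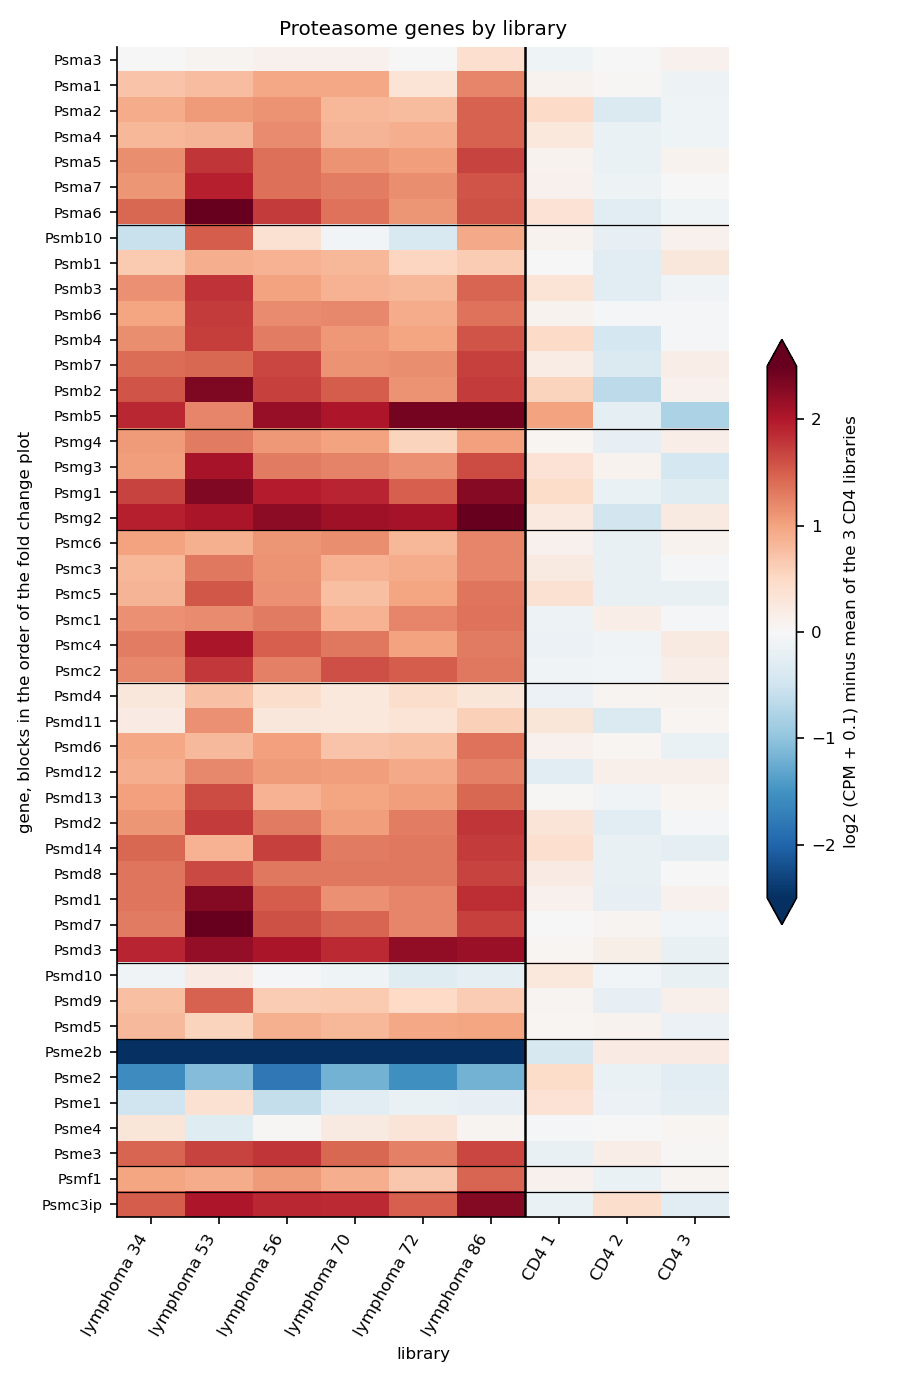
Each tested member by library, as log2 CPM (0.1 added) minus the mean of the 3 CD4 libraries, in the order of the fold change plot. Lymphoma columns are red for the 38 members called higher and blue for Psme2 and Psme2b, and lymphoma 53 is deepest for Psma6 and Psmd7.

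The median SD of log2 CPM within lymphoma was 0.29 over the tested members and 0.47 over all tested genes, and without lymphoma 53 it was 0.21 and 0.34, with no matching on level. Lymphoma 53 was the highest of the lymphomas for 26 of 46 members and lymphoma 86 for 17, while lymphoma 72 was the lowest for 20. Across all tested genes lymphoma 53 also stood apart, by the correlations given above. Each lymphoma exceeded all CD4 libraries at 39 to 42 of the 46 members. Neither this count nor those of highest and lowest lymphoma were made over all tested genes, so they do not set the members apart. Lymphoma 53 was the lowest for 4 members, Psmb5, Psmd5, Psmd14 and Psme4. For Psmd14 it had 139 CPM, and the other lymphomas had 188 to 255 CPM. Psmc3ip, the recombination factor matched by its symbol alone, rose by 1.87 (SE 0.336), from 2.86, 4.44 and 2.66 CPM to 9.36, 12.2 and 16.2 CPM. All of its last 300 exonic bases lie opposite exons of Mlx, so those reads are uncertain.

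Genes that work with the proteasome were read from a list of 33, of which 32 were in the table and tested. Of these 13 were higher and 3 lower, with a median log2 fold change of 0.18, against the 24.7% and 21.9% of all tested genes. Both remaining subunits of the cap rose, Adrm1 by 0.74 (SE 0.180) and Sem1, listed as Shfm1, by 0.84 (SE 0.169), and so did the core assembly factor Pomp by 1.01 (SE 0.255). The largest rises were those of Uchl5, a deubiquitinase bound to the cap (2.06, SE 0.216, from 32.6 to 49.2 CPM in CD4 to 137 to 226 CPM in lymphoma), Txnl1, a thioredoxin-like partner of the cap (1.55, SE 0.221), and Ubqln4, a shuttle factor for ubiquitinated proteins (1.44, SE 0.190). The second deubiquitinase of the cap, Usp14, rose by 1.30 (SE 0.167), and the unfolding ATPase Vcp by 1.43 (SE 0.192).

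Ngly1 and Ubr4 were among the genes of the list that fell. Ngly1, which removes sugars from NFE2L1 and other proteins, had 10.1 to 15.99 CPM in lymphoma and 21.1 to 25.6 CPM in CD4 (log2 fold change -0.75, SE 0.228, edgeR adjusted p 0.0172). Ubr4, a ubiquitin ligase, changed by -0.60 (SE 0.160, edgeR adjusted p 0.00881). Both calls were lost once GC content and length were accounted for, and that of Ngly1 also without CD4 2. Ubb, a ubiquitin gene, rose by 0.93 (SE 0.244). Nfe2l1, the transcription factor known for raising proteasome genes when the proteasome is impaired, did not pass (-0.37, SE 0.235, edgeR adjusted p 0.222), nor did Ddi2, the protease that activates it (0.09, SE 0.156, edgeR adjusted p 0.653).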

How the data were processed

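RNA 3′ ends of 6 lymphoma and 3 CD4 samples were analysed. The deposited table holds raw read counts per Ensembl gene, with a symbol beside each ID. Per the submitters' processing notes, FastQC, HISAT2, SAMtools and HTSeq were used with mm10 and GRCm38, and the annotation and strand setting are not given in the sources used here. The 5 closing summary rows were left out of library sizes and tests, and reads in genes made up 38.7 to 49.1% of reads in lymphoma and 27.8 to 35.0% in CD4.

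Counts were fitted with edgeR 4.0.16 in R 4.3.3 (filterByExpr with a minimum count of 10, TMM, robust glmQLFit, glmQLFTest, no covariate, all 9 libraries), and p-values were adjusted over the 15401 tested genes. The standard error is the absolute log2 fold change over the square root of F. A prior count of 2 entered log2 CPM. Ratios used a pseudocount of 0.5 and exact permutation of 84 assignments, counting absolute differences of means at least as large. The fit was tested on simulated data. There edgeR called 18 of 100 changes of 1 in log2 and 73 of 100 changes of 2, with 3 false calls. A gene that did not pass is therefore not shown to be unchanged. No pair of libraries agreed within sampling noise (chi-square per degree of freedom at least 20.9).

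Positions and overlaps came from GENCODE M21 (GRCm38), which matched all 48 members. Near copies came from BLAST+ 2.17.0 of the last 300 transcript bases (at least 90% identity over 100 bases). The 8 members with near copies were Psma5, Psmb1, Psmb5, Psmb11, Psmc2, Psmd2, Psme2 and Psme2b, and their levels are less certain. Members and lists were chosen with earlier results of these data known. Full values are given for catalytic and alternative core subunits, activators and Psmf1, for the 3 largest called rises and falls in core, cap and chaperones, for members whose call changed, and for the 3 largest rises and falls of the pathway list, of which 1 is not reported here. The promoters shown and other genes named were chosen after their values were seen. Alternatives were other scalings, filters, thresholds and tools (DESeq2 1.42.0, limma 3.58.1), removal of the GC and length trend, averaging lymphomas 34, 70 and 72, and leaving out each library.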

Additional observations from a re-analysis of the deposited data

Results flagged for a closer look

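Each of 63 values or sets of values over the 6 lymphomas was examined for a library lying far from its nearest neighbour by Dixon's test at the 95% level. There were 12, where chance gives about 1 in 20, or 3.15, and 10 of the 12 concern lymphoma 53. The values are not independent, because they share libraries and the flagged group means contain flagged members. The rate of 1 in 20 assumes normally distributed values, which CPM need not be. Psma8, with counts in 1 lymphoma only, is flagged by construction. The number 3.15 is thus only a rough guide.

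Lymphoma 53 was high for 8 members: Psma6 (457 CPM), Psmc4 (199 CPM), Psmd4 (270 CPM), Psmd7 (656 CPM), Psmd9 (60.8 CPM), Psmd11 (202 CPM), Psme1 (359 CPM) and Psme2b (3.01 CPM). It was also high in the mean of log2 CPM over CD4 for the base chaperones (0.74) and for the activators (-0.40). Lymphoma 86 was high for Psma3 (309 CPM). Lymphoma 34 was the only library with counts of Psma8 (1.10 CPM).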

How the results depend on the processing

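Over 19 alternative fits at the same threshold (18 for Psme2b), 40 of the 46 tested members kept direction and side of it throughout. Of these 40, 38 were called. The exceptions were Psmd4, Psmd9, Psmd11, Psma3, Psme4 and Psmd10, the last turning to 0.17 with the GC and length trend removed and running from -0.18 to 0.059 when 1 library was left out, with the turn without CD4 1. The number of higher members ran from 36 to 38 when 1 library was left out, with 2 lower in each such fit. It was 40 after removing that trend and 32 when a 2-fold change was required. With at least 10 counts in every library 1 member was lower, since Psme2b was then not tested. Upper quartile scaling moved the median of all genes from 0.04 to -0.06, beside which 37 members were still higher and 2 lower.

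Medians moved beyond the spread between lymphomas in few cases. Leaving out 1 library gave 0.95 to 1.29 for the alpha ring, 0.63 to 0.88 for the base chaperones, 1.52 to 1.92 for the core chaperones and -0.37 to -0.00032 for the activators, and the activators stood at -0.46 once that trend was removed. The other pathway genes had 2 or 3 lower when 1 library was left out, 1 lower with the GC and length trend removed or an adjusted p under 0.01, and 0 with a 2-fold change required. The Psmb10/Psmb7 difference ran from -1.35 without lymphoma 53, a value that has no valid test, to -0.94 without lymphoma 34. The causes of these shifts were not tested. No paired analysis was possible because the groups share no replicate number. Depth limits Psma8 and Psmb11, and Psme2b in lymphoma.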
